A study of Homo sapiens with 12 samples.

Results

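The clusters described here lie in the 5′ UTRs of genes where all 4 examined subunits of the translation initiation factor eIF3 were crosslinked. They were selected on presence in the authors' cluster table: a cluster annotated as 5′ UTR was kept when its gene had at least 1 such cluster for each of eIF3a, eIF3b, eIF3d and eIF3g. This gave 544 clusters in 113 genes, out of 1001 5′ UTR clusters in 331 genes and 1477 clusters in 479 genes in all. Presence chose the members, and a cluster needs reads to be present, so presence and read levels are given as a description. The other 457 clusters of the 5′ UTR, in 218 genes listed for 1 to 3 subunits, serve for comparison.

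The libraries came from 293T cells, a line of transformed kidney cells of human embryonic origin, as 4 groups of 3 replicates, 1 group per subunit. The labels do not say if replicates were separate cultures, and replicate 1 carried a random barcode. All 12 libraries share the treatment: 100 µM 4-thiouridine for 14 h, crosslinking at 0.15 J per square cm, an antibody against eIF3b and RNase T1. The groups differ in the subunit whose RNA was sequenced, and no untreated or uncrosslinked group is analysed here. The authors' table has 1 pooled value per cluster and subunit and no replicate column, so neither an SD nor a test across samples can be given.

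eIF3 is a large complex that binds the small ribosomal subunit and helps to bring it to the 5′ end of mRNAs. The 5′ UTR is the stretch that the initiating ribosome scans before it reaches the start codon, and control of initiation can act through it. In PAR-CLIP, the method used, crosslinked RNA is trimmed by a ribonuclease and sequenced. Overlapping reads form a cluster, and crosslinked 4-thiouridine is read as C in place of T. RNase T1 cuts after G.

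Start sites of the genes were examined for the kind of 5′ end that marks translation-regulated mRNAs. Many mRNAs of ribosomal proteins and translation factors begin with C followed by a run of pyrimidines, the 5′ terminal oligopyrimidine tract. Sequences around RefSeq starts (build GRCh38.p14) were held for 99 of the 113 genes. A C at the start itself followed by 4 bases each C or T, read on the transcribed strand only, was found in 14 of 99 members (14.1%). It was found in 11 of 181 other 5′ UTR genes (6.08%) and in 4.60% of 15842 protein-coding genes. The 14 were ATP6V1E1, COX7C, EEF2, ELOVL5, FAU, HDAC2, HNRNPA0, LSM2, MAZ, RANGAP1, RPL35A, RPL38, TMEM33 and TPT1. With the C up to 5 nt to either side of the start, a choice made after seeing the data, the shares were 29.3%, 24.9% and 22.1%.

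Among the 14, the windows of members of the ribosomal protein, translation factor and splicing and hnRNP lists are shown because they hold this tract. They are 3 of the 4 ribosomal protein members with a start sequence and 1 of 7 splicing and hnRNP proteins. From the translation factor list they are 2 of 3 genes, EEF2 and TPT1. RPS4X, EIF5, U2AF2, HNRNPA2B1, HNRNPAB, HNRNPC, SRSF5 and SRSF11 did not have the tract at the RefSeq start. Each runs from 25 bases before the start to 5 bases after it, and the capitals mark the first 5 transcribed bases. The windows are those of EEF2 (GRCh38.p14, chr19:3985459-3985488, minus strand), FAU (chr11:65122130-65122159, minus), HNRNPA0 (chr5:137754359-137754388, minus), RPL35A (chr3:197950165-197950194, plus), RPL38 (chr17:74203653-74203682, plus) and TPT1 (chr13:45341179-45341208, minus).
EEF2: aaagctgagtgttgacgtcagcgttCTCTT
FAU: tgtactgacgcgccctcgcttcttcCTCTT
HNRNPA0: ggagggtgcgcgcgcgttcagcggcCTCTT
RPL35A: caaggccacgcggcggggcctcgtcCTTCT
RPL38: actgcccggaaacggaagtctcgttCTTTT
TPT1: gaggttggggagcggctgagtcggcCTTTT
All 6 begin with C, as the selection required, and have T in the fifth place, where the selection allowed C or T. The clusters have hg19 positions and the windows GRCh38 positions, so whether a cluster lay in a window was not determined. In the first 50 bases after the start, T made up a median of 20% in members and 18% both in the other 5′ UTR genes and in all protein-coding genes, and TTTT occurred in 9.09%, 11.0% and 9.04%.

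All 113 genes were protein-coding in the RefSeq gene table. They lay on 20 chromosomes, 47 on the plus and 66 on the minus strand. The rule asks for at least 1 cluster per gene in each subunit, which keeps the numbers of clusters close. Of these clusters eIF3a had 137, eIF3b 130, eIF3d 139 and eIF3g 138. That was 66.3% of the 5′ UTR clusters of eIF3b (95% Wilson interval 59.5 to 72.6). For eIF3a it was 53.9% (interval 47.8 to 60.0), for eIF3g 50.4% (44.5 to 56.2) and for eIF3d 50.2% (44.3 to 56.0). Intervals cover counting error only. The eIF3b list was the shortest, with 5′ UTR clusters in 178 genes against 226 to 248 for the other subunits, so the 113 genes are a larger share of it. By reads, the members held between 76.4% (eIF3a) and 84.9% (eIF3b) of the 5′ UTR reads, and between 16.4% (eIF3g) and 49.6% (eIF3a) of all reads in clusters. Reads in clusters ranged from 15132 in eIF3a to 62405 in eIF3g over the whole table, and the depth of the libraries is unknown.

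Members ran from mRNAs of growth control to mRNAs of the translation and splicing machinery. Reads summed over the 4 subunits had a median of 138 per gene and ranged from 41 to 6421. The 4 leading genes, BTG1, JUN, DDX39B and UBE2D2, held 35.4% of the 34142 member reads, BTG1 alone 18.8%. Another 11 genes had 500 reads or more (15 in all), and 34 genes had fewer than 100. Reads are raw counts that also depend on the abundance of each mRNA, which was not tested.

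BTG1 encodes an anti-proliferative protein that binds the deadenylation machinery. Its single locus (hg19, chromosome 12, 92539487 to 92539600, minus strand) held 684, 372, 2256 and 3109 reads, where 4 values in a row stand here and below for eIF3a, eIF3b, eIF3d and eIF3g in that order. JUN, a subunit of the AP-1 transcription factor (chromosome 1, 59249572 to 59249605, minus strand), had 138, 100, 286 and 1735 reads. In both genes eIF3g was highest and eIF3b lowest, with a ratio of highest to lowest of 8.36 in BTG1 and 17.4 in JUN. For comparison the median of that ratio over the 113 genes was 2.57, and 32 genes exceeded 4.

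DDX39B, an RNA helicase of splicing and mRNA export (chromosome 6, 31508375 to 31508402, minus strand), had 361, 665, 451 and 306 reads. UBE2D2, a ubiquitin-conjugating enzyme (chromosome 5, 138941230 to 138941280, plus strand), had 554, 276, 589 and 199. PTGES3, an Hsp90 co-chaperone, had 192, 239, 159 and 193 reads. The subunits lay about 1.5-fold apart in PTGES3 and spread 2.17-fold in DDX39B and 2.96-fold in UBE2D2, with no common order. MLF2 had 220, 345, 74 and 101 reads, highest in eIF3b. TPT1, the translationally controlled tumour protein, had 172, 57, 112 and 368 reads and was highest in eIF3g and lowest in eIF3b.

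PPP3R1, the regulatory subunit of calcineurin, had 195, 148, 206 and 135 reads. AMOT, angiomotin, a scaffold at cell junctions, had 157, 141, 239 and 146. MORF4L2, a component of histone acetyltransferase complexes, had 157, 183, 225 and 117. All 3 were highest in eIF3d, and none spread by more than 1.92-fold. The gene named C7orf55-LUC7L2, a read-through that includes the splicing factor LUC7L2, had 146, 340, 117 and 72 reads. MTPN, myotrophin, which binds the capping protein of actin, had 204, 118, 169 and 182.

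**Figure D1:**
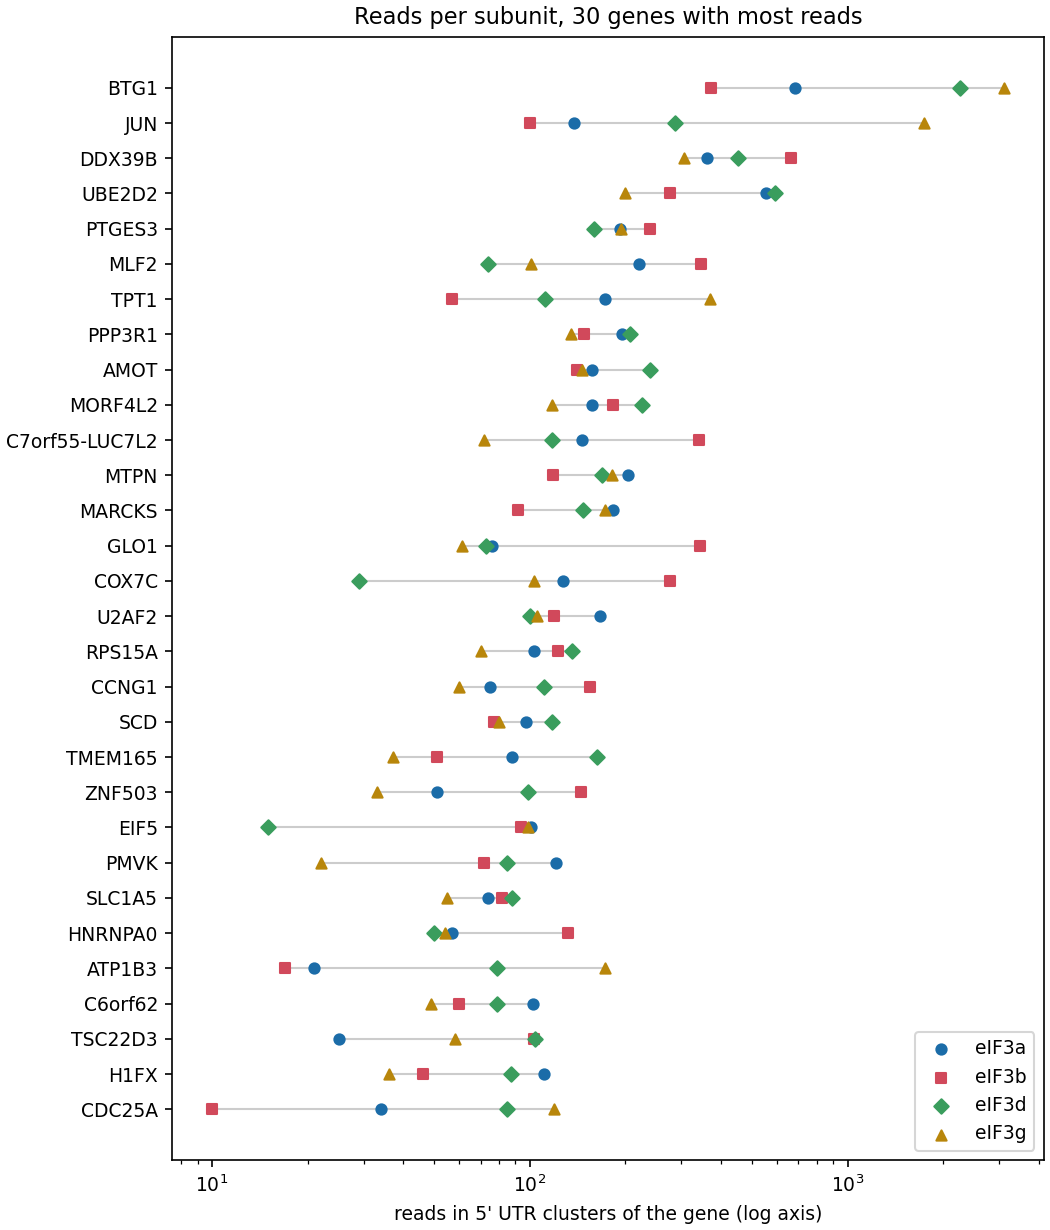
Reads in the 5′ UTR clusters of the 30 genes with most reads (log axis), 1 symbol per subunit and a grey line from the lowest to the highest subunit. BTG1 (372 to 3109 reads) and JUN (100 to 1735) spread most in absolute reads, while PTGES3 (159 to 239) and PPP3R1 (135 to 206) have 4 nearby symbols.

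No subunit was highest throughout. eIF3d alone had the most reads in 38 genes, eIF3a in 32, eIF3g in 21 and eIF3b in 19, with ties in 3. The lowest value was that of eIF3b in 43 genes and of eIF3g in 37, against 19 for eIF3d and 10 for eIF3a, with ties in 4. These tallies use raw reads without scaling. Over all loci shared by a pair, the median log2 ratio of raw reads was -0.27 from eIF3a to eIF3b. It was 0.37 from eIF3b to eIF3d and 0 from eIF3a to eIF3g. Across the 113 genes, Spearman's rho of reads between subunits ranged from 0.56 (eIF3a with eIF3g) to 0.71 (eIF3a with eIF3d). These values are a description over genes that share their mRNA abundance and one antibody.

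To compare subunits locus by locus, read ratios were scaled so that the median over all loci of the table shared by a pair was 1, and differences of 2-fold or more were counted. From eIF3a to eIF3d, 10 of 132 member loci were higher (7.58%) and 15 lower (11.4%), beside 13.0% and 11.7% over all 299 loci of the pair. From eIF3a to eIF3b, 23 of 126 were higher (18.3%) and 20 lower (15.9%), beside 21.0% and 16.2% of all loci. From eIF3b to eIF3d, 22 of 124 were higher (17.7%) and 24 lower (19.4%), beside 19.6% and 17.8%. These 3 pairs lay near or under the level of all loci.

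In the comparisons with eIF3g more member loci were lower than higher on this scale. From eIF3a to eIF3g, 19 of 131 member loci were higher (14.5%) and 34 lower (26.0%), beside 21.8% and 19.7% of all loci. From eIF3b to eIF3g, 20 of 126 were higher (15.9%) and 33 lower (26.2%), beside 22.7% and 23.6%. From eIF3d to eIF3g, 17 of 132 were higher (12.9%) and 33 lower (25%), beside 19.8% and 18.4%. The medians of the scaled log2 ratio of member loci were -0.39, -0.22 and -0.40 in these 3 pairs. Pairs share subunits, so these counts are not independent.

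The split into higher and lower depended on the scaling, among the members and among all loci of a pair alike. Scaling moved the ratios of all loci by up to 0.60 on the log2 scale. From eIF3b to eIF3g it was 26 higher and 22 lower without scaling (all loci 70 and 43), and 11 and 45 with reads scaled to the 5′ UTR total of each subunit (all loci 34 and 75). From eIF3a to eIF3g it was 19 and 34 without scaling (all loci 62 and 56), and 11 and 54 with the 5′ UTR total (all loci 43 and 86). From eIF3a to eIF3d it was 20 and 10 without scaling (all loci 59 and 26), and 7 and 18 with the total (all loci 30 and 39).

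For eIF3b to eIF3d the member split was 36 and 16 without scaling (all loci 65 and 29), and 16 and 30 with the total (all loci 36 and 54). For eIF3a to eIF3b it was 19 and 28 (all loci 38 and 53), then 23 and 21 (all loci 47 and 39). For eIF3d to eIF3g it was 17 and 33 (all loci 58 and 55), then 14 and 36 (all loci 49 and 60). In the pairs of eIF3g with eIF3a and with eIF3d, fewer member loci were higher than lower under each of the 3 scalings. For these pairs the median scaling moved the ratios by only 0 and -0.03 on the log2 scale. It gave the same member counts as no scaling and is not a separate check there.

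JUN had the largest scaled ratio of eIF3g over eIF3a among member loci of all 4 subunits, 12.6. ATP1B3, a beta subunit of the sodium pump, followed with 8.24 and had 21, 17, 79 and 173 reads. BTG1 had a ratio of 4.55 and HNRNPC, an hnRNP of nuclear pre-mRNA, 4.29 (14, 12, 30 and 60 reads). In each of these 4 genes both eIF3d and eIF3g lay above both eIF3a and eIF3b. At the other end, PMVK, a kinase of the mevalonate pathway, had a ratio of 0.18 (121, 72, 85 and 22 reads). RANGAP1, the GTPase activator of Ran in nuclear transport, had 0.19 (57, 14, 41 and 11 reads), and RBM39, a splicing factor, 0.22 (60, 45, 14 and 13 reads). In HNRNPA0 one locus had a ratio of 0.19, with 42, 113, 39 and 8 reads.

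By function, 56 of the 113 genes fell into at least 1 of 13 gene lists, and 57 into none. Over the 331 genes with a 5′ UTR cluster, 34.1% were members, and of the 127 listed genes among them 44.1% were. The lists were written with earlier results of these data known, so their counts are given without a test. The counts below are of genes in a list, not of all members with that function. The lists are incomplete: PMVK, MBOAT7, PPP4R2 and RRAGA, for example, were in none.

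Splicing and hnRNP proteins, which process and package nuclear pre-mRNA, had 8 members beside 6 other genes with a 5′ UTR cluster. Their summed reads ranged from 116 to 490. U2AF2, the large subunit of the factor that recognises the 3′ splice site, had 166, 119, 100 and 105 reads. HNRNPA0 had 57, 132, 50 and 54 reads over its loci, and HNRNPAB had 35, 27, 82 and 41. The others were HNRNPC, HNRNPA2B1, SRSF5, SRSF11 and RBM39.

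Cytosolic ribosomal proteins had 6 members and only 2 other genes with a 5′ UTR cluster, but low reads, with a median of 83.5 summed reads. RPS15A led with 103, 123, 136 and 70 reads. RPS4X had 45, 37, 40 and 30 reads and RPS2 had 32, 19, 46 and 8. FAU, RPL38 and RPL35A had between 53 and 62 summed reads. The translation factor list had 3 members. They were EIF5, the GTPase activator that acts on the initiator tRNA complex, EEF2, the translocase of elongation, and TPT1. TPT1 is counted as the list gives it, and is the translationally controlled tumour protein named above. EIF5 had 101, 94, 15 and 99 reads, low in eIF3d, and EEF2 had 22, 14, 23 and 8. The list held 4 other genes with a 5′ UTR cluster.

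Chromatin proteins had 6 members and 6 other genes. MORF4L2 led; H1FX, a linker histone variant, had 111, 46, 87 and 36 reads, and SMARCA5, an ATPase of nucleosome remodelling, had 46, 24, 30 and 22. Cell cycle genes had 5 members and 7 others. CCNG1, cyclin G1, had 75, 155, 111 and 60 reads. CDC25A, which removes inhibitory phosphates from the kinases of the cell cycle, had 34, 10, 85 and 119, and its paralog CDC25C had 8, 12, 19 and 29. In CDC25A and CDC25C alike eIF3g was highest and eIF3d second.

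The metabolic and mitochondrial list had 5 members and 2 others. GLO1, which detoxifies methylglyoxal, had 76, 344, 73 and 61 reads. COX7C, a small subunit of cytochrome c oxidase, had 127, 276, 29 and 103, and SCD, a fatty acid desaturase, 97, 77, 117 and 80. GLO1 and COX7C were highest in eIF3b, SCD was not. Chaperones had 4 members (PTGES3, MLF2, BAG3 and CANX) and 5 others. BAG3, a co-chaperone of Hsp70, had 35, 27, 48 and 39 reads.

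The cytoskeleton list had 4 members and 5 others, with MARCKS, which binds actin and membranes, at 183, 92, 147 and 173 reads, and the GTPase RHOA at 45, 38, 75 and 73. Membrane and trafficking genes had 4 and 7: SLC1A5, a glutamine transporter, had 74, 82, 88 and 55 reads, and ITM2B had 12, 14, 23 and 41. mRNA export and decay genes had 4 members and 4 others, among them IGF2BP1, an mRNA-binding protein, with 13, 13, 18 and 17. Ubiquitin and proteasome genes had 3 and 5: PSMD14, a deubiquitinase of the proteasome lid, had 52, 20, 37 and 21 reads and UBE2V1 had 12, 13, 12 and 20. The transcription factor list had 2 members, JUN and MAZ, and 7 others. MAZ, a zinc finger protein, had 58, 44, 22 and 29 reads. The signalling list had 3 members and 11 others. Its members were PPP3R1, ARF3 with 32, 28, 17 and 29 reads, and NF2, the tumour suppressor merlin, with 15, 9, 15 and 29.

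Most genes had a single place of contact. Clusters of different subunits that overlapped by at least 1 nt on the same strand were joined into loci, which gave 147 loci. In 88 of 113 genes (77.9%) there was 1 locus, which by the rule holds a cluster of every subunit. Of the other genes, 18 had 2 loci, 5 had 3 and 2 had 4. The rule asks for a cluster of each subunit anywhere in the 5′ UTR, so the place was free in every gene. A locus of all 4 subunits was found in 110 of 113 genes: the 88 with 1 locus and 22 of the other 25. Of the 147 loci, 120 were of all 4. Clusters were joined in a chain, so a locus of all 4 need not hold a base common to the 4 subunits. A further 14 loci were of 3 subunits, 9 of 2 and 4 of 1. Among the 218 other genes 95.0% had 1 locus. Those genes were listed for fewer subunits, and the part of this in the difference was not tested.

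**Figure D2:**
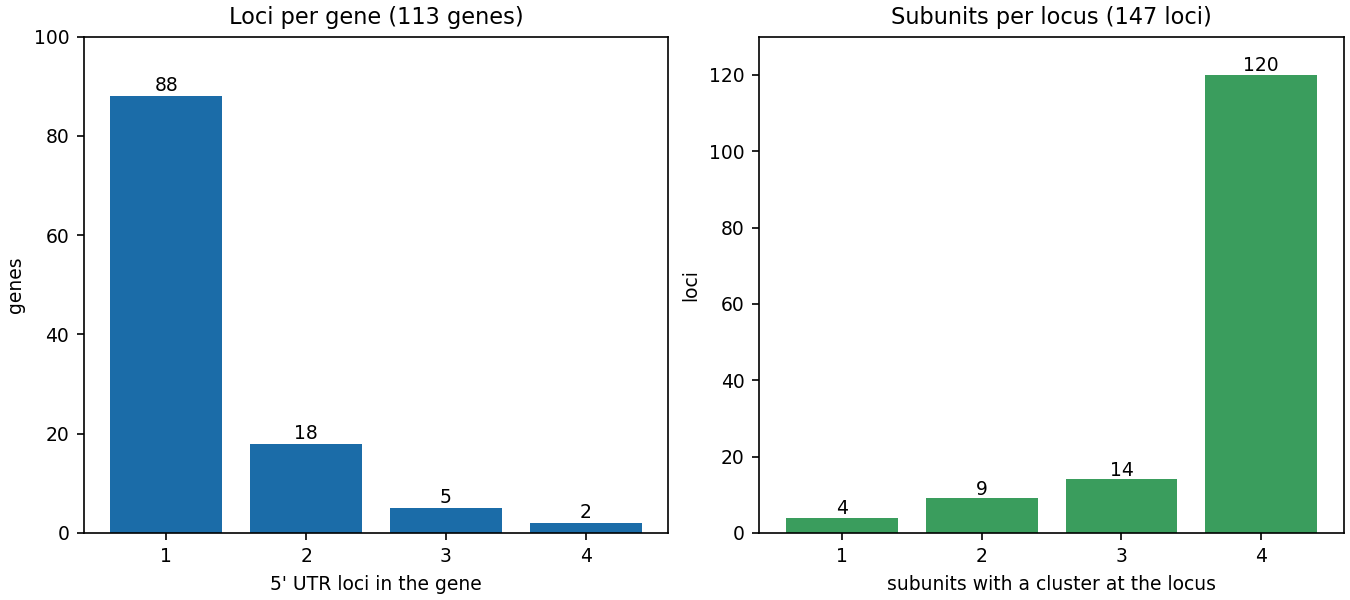
Left, number of genes with 1 to 4 loci in the 5′ UTR. Right, number of loci with clusters of 1 to 4 subunits. Of 113 genes 88 have 1 locus, and 120 of 147 loci hold clusters of all 4 subunits.

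Only 3 genes had all 4 subunits without a common locus. CBX3, a heterochromatin protein 1 family member (chromosome 7, plus strand), had eIF3b, eIF3d and eIF3g at 26241570 to 26241606, with 28, 12 and 27 reads. Its second locus lay 350 nt downstream and had eIF3a, eIF3b and eIF3d, with 17, 8 and 26 reads. PPP4R2, a regulatory subunit of protein phosphatase 4, had eIF3d alone at 1 locus (10 reads) and eIF3a, eIF3b and eIF3g 16 nt away (37, 11 and 12 reads). RRAGA, the Rag GTPase A of amino acid signalling to mTORC1, had 3 loci within a short stretch (chromosome 9, 19049426 to 19049530, plus strand), with gaps of 2 nt and 41 nt. The gap in PPP4R2 and the shorter one in RRAGA were below the median width of a cluster, 25 nt.

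AMOT and MTPN had 4 loci each. In AMOT (chromosome X, minus strand) the strongest lay at 112083846 to 112083940, with 100, 109, 205 and 58 reads. A neighbour 52 nt away had 27, 11, 14 and 55 reads, and the nearer of the other AMOT loci lay 24835 nt from the strongest. MTPN had its strongest locus at 135661944 to 135661993 (chromosome 7, minus strand), with 116, 109, 103 and 128 reads. MTPN also had a locus of 76, 9, 40 and 25 reads 7 nt away. MARCKS had 3 loci, but 541 of its 595 reads were in one. In C7orf55-LUC7L2, 544 of 675 reads were in the third of 3 loci.

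Of 34 gaps between neighbouring loci of a gene, the median was 47 nt, 7 were at most 20 nt and 2 exceeded 1000 nt, the longest 35582 nt in PTBP3, a paralog of the splicing regulator PTBP1 that is named after its values were seen. Neighbouring loci did not always have the same order of subunits. In EIF5 one locus had 25, 12 and 82 reads in eIF3a, eIF3b and eIF3g and none in eIF3d, and the other, 67 nt away, 76, 82, 15 and 17. In HNRNPA0 the loci had 15, 19, 11 and 46 reads and 42, 113, 39 and 8. In CDC25A one locus had 25, 10, 74 and 21 reads, and eIF3g was highest at the other, with 98 reads against 9 in eIF3a and 11 in eIF3d.

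Cluster width, taken as end minus start, was narrow and alike in the 4 subunits. Medians were 25, 26, 24 and 25 nt, and the upper quartile was 32.75 nt in eIF3b against 27 or 28 nt in the other subunits. In the other 5′ UTR genes the medians were 24, 25, 24 and 24 nt. Between 20 and 30 nt lay 412 of 544 member clusters (75.7%) and 392 of 457 others (85.8%). The upper tail differed: 39 member clusters (7.17%), in 16 genes, exceeded 40 nt, against 5 of the others (1.09%). All 68 5′ UTR clusters of 100 reads or more belonged to members, and their median width was 30 nt. Among clusters under 100 reads, 20 of 476 member clusters (4.20%) exceeded 40 nt.

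The widest locus was that of BTG1, with clusters of 113, 82, 81 and 83 nt. TSC22D3, a glucocorticoid-induced leucine zipper protein, had widths of 72, 83, 84 and 81 nt at only 25, 103, 104 and 58 reads. BTG1, TSC22D3, CCND2 and the main locus of AMOT exceeded 40 nt in every subunit. At 120 loci with 1 cluster per subunit, eIF3b alone was the widest at 23, eIF3a at 9, eIF3d at 8 and eIF3g at 3. Only eIF3b exceeded 40 nt at 5 loci, in CDV3, DENND4B, SCD, TIAL1 and TMEM33, and only eIF3g at 1, in AMOT. In SCD (chromosome 10, 102106932 to 102106984) the eIF3b cluster spanned 51 nt and those of eIF3a, eIF3d and eIF3g 25, 26 and 26. MAZ had 33, 74, 45 and 33 nt.

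**Figure D3:**
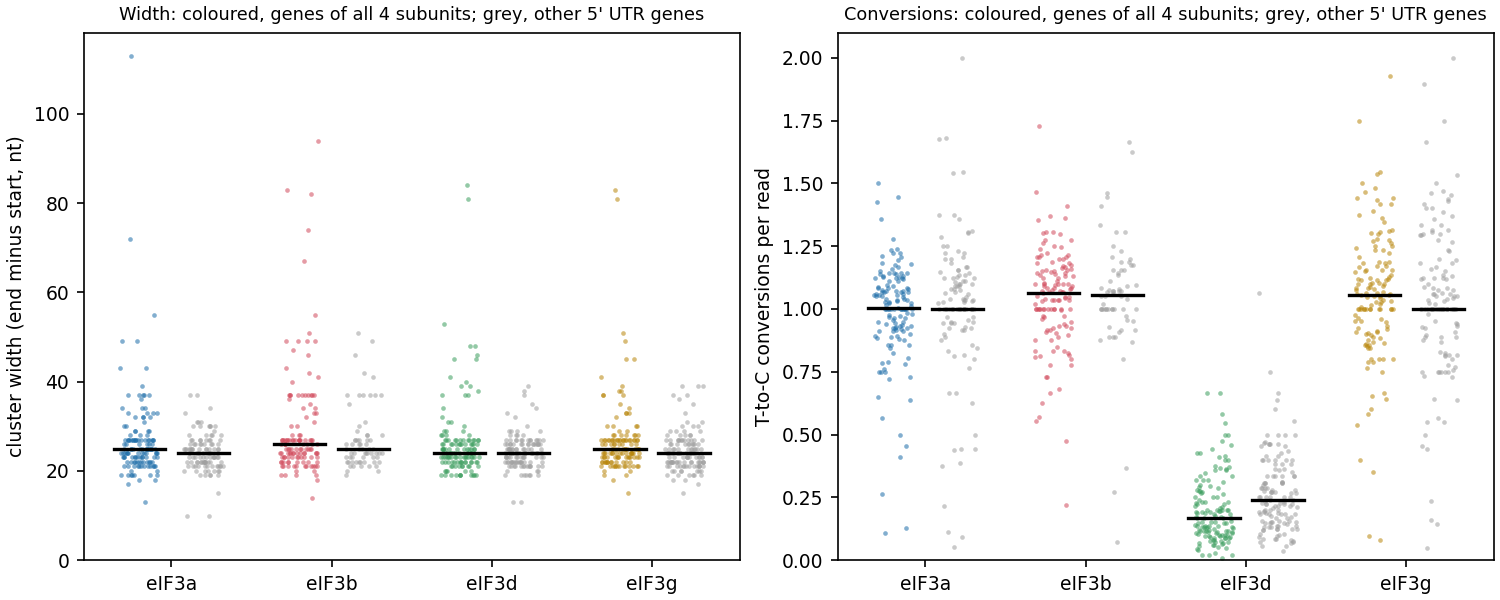
Width (left, nt) and T-to-C conversions per read (right) of every 5′ UTR cluster, coloured for genes of all 4 subunits and grey for the other genes, with a black bar at the median. Median widths lie between 24 and 26 nt in all 8 columns, and eIF3d has the lowest conversions in both sets of genes.

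Cluster borders often fell on the same nucleotide in different subunits. At the 120 loci with 1 cluster in each subunit, the 5′ border, taken along the transcript, was identical in all 4 at 64 loci (53.3%) and the 3′ border at 65 (54.2%). Both borders were identical in all 4 at 43 loci (35.8%), and both lay within 3 nt at 64 (53.3%). The median distance between the farthest borders of the 4 subunits was 0 nt at either end, and the longest was 34 nt at the 5′ end and 58 nt at the 3′ end. Agreement was thus alike at the 5′ and the 3′ end.

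The 43 loci of identical borders spanned low and high reads, with a median of 129 summed reads against 122 at the other 77 loci. The strongest were DDX39B at 27 nt wide, TPT1 (chromosome 13, 45915327 to 45915353) at 26 nt, the main locus of PPP3R1 (chromosome 2, 68479456 to 68479480) at 24 nt and that of MARCKS (chromosome 6, 114178670 to 114178697) at 27 nt. In DDX39B reads ranged from 306 to 665 and in TPT1 from 57 to 368, so the same span was listed at different read counts. Ribosomal protein mRNAs RPL38 and RPS4X were among the 43, as were CCNG1, COX7C, FTL and U2AF2.

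In JUN only the 5′ border of eIF3d, at 59249600, differed from that of the other subunits, at 59249605. In BTG1 the 5′ border reached 92539600 in eIF3a and 92539569 or 92539570 in the other 3, while the 3′ borders lay within 2 nt. In MLF2 (chromosome 12, 6862177 to 6862209, minus strand) all 4 began at 6862209, and eIF3d and eIF3g ended 10 nt before eIF3a and eIF3b. The borders lay far apart at some other loci. MAZ had 3′ borders up to 58 nt apart, the strongest AMOT locus 43 nt, and one locus of MBOAT7, a lysophospholipid acyltransferase, 34 nt at the 5′ and 33 nt at the 3′ end. The clusters of MBOAT7 were 24 or 25 nt wide. That of eIF3a (chromosome 19, 54693314 to 54693338) did not overlap those of eIF3d and eIF3g (54693347 to 54693372). They were joined only through the eIF3b cluster, at 54693329 to 54693353. The wide clusters of TSC22D3 differed by 15 and 12 nt. The widest clusters of MAZ and of the strongest AMOT locus spanned 74 and 94 nt. No locus with identical borders in all 4 subunits was wider than 37 nt.

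Where a single subunit left a border shared by the other 3, it was eIF3b at 10 loci for the 5′ border and at 8 for the 3′ border. The counts were 8 and 6 for eIF3d, 6 and 4 for eIF3a, and 4 and 3 for eIF3g. At the 5′ end the odd cluster was shorter in most cases, at 7 of 10 for eIF3b, 7 of 8 for eIF3d, 5 of 6 for eIF3a and 3 of 4 for eIF3g. At the 3′ end it was shorter at 4 of 8 for eIF3b, 5 of 6 for eIF3d, 2 of 4 for eIF3a and 3 of 3 for eIF3g.

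**Figure D4:**
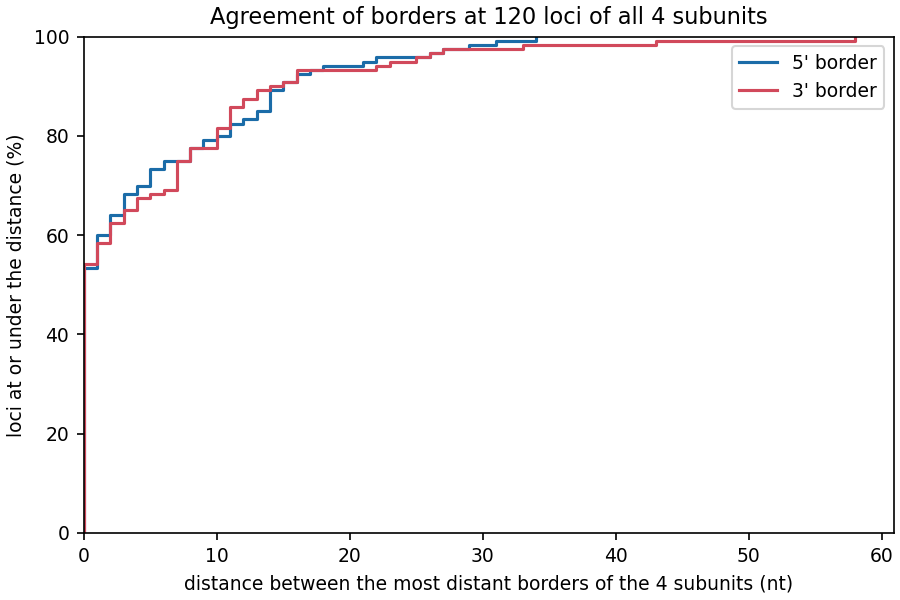
Cumulative share of the 120 loci of all 4 subunits by the distance in nt between the most distant borders of the subunits, for the 5′ border (blue) and the 3′ border (red). The lines start at 53.3% and 54.2% at a distance of 0 nt and reach 34 nt and 58 nt at their ends.

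By pairs of subunits, both borders were identical at 44.4% of the loci shared by eIF3b and eIF3d (95% Wilson interval 35.9 to 53.1, 124 loci) and at 58.0% for eIF3a and eIF3g (49.4 to 66.1, 131 loci). The 4 other pairs lay between. Pooled over the 6 pairs, 52.9% of 771 comparisons at member loci had both borders the same, 70.0% the same 5′ border and 68.9% the same 3′ border. In the other 5′ UTR genes the shares were 49.3%, 65.3% and 65.7% of 300 comparisons. The intervals of members and other genes overlapped in each pair for the 5′ border, the 3′ border and both. They cover counting error only and treat loci as independent, so they do not show that the sets are alike.

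**Figure D5:**
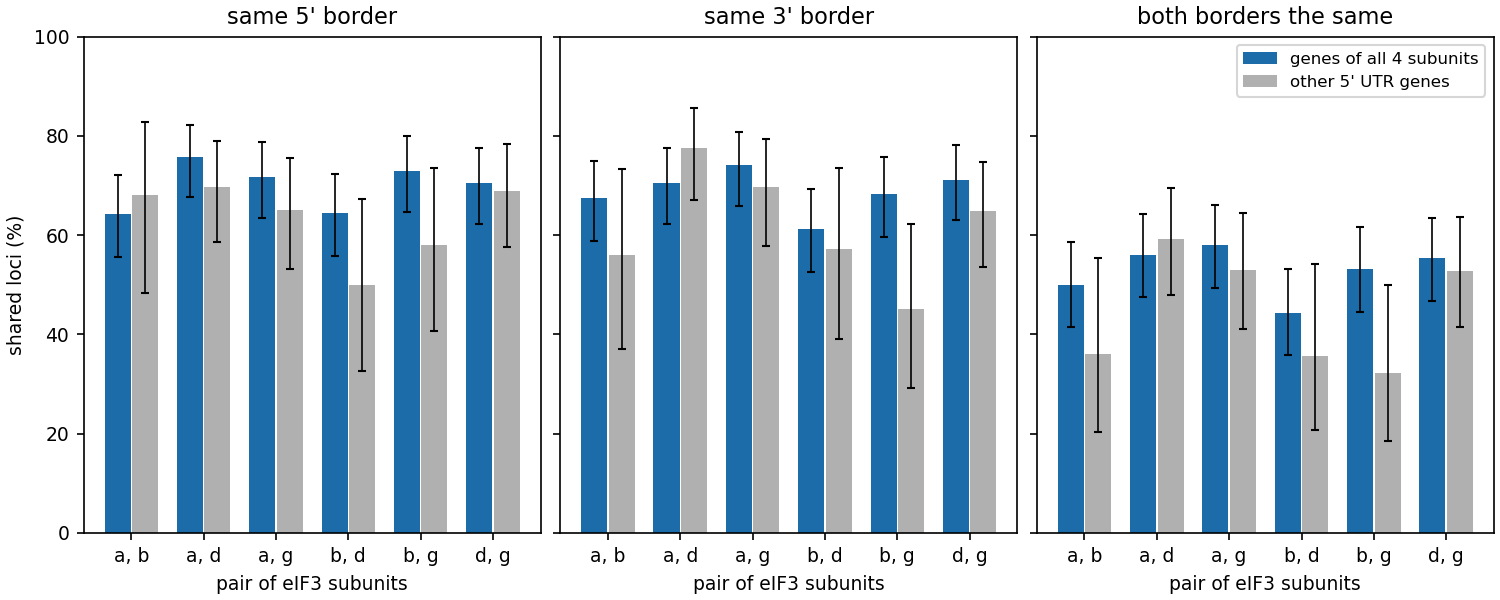
Share of loci shared by a pair of subunits (letters a, b, d and g) at which the 5′ border, the 3′ border or both were identical, for the 113 genes (blue) and the other 5′ UTR genes (grey). Bars of 95% Wilson intervals overlap in each of the 18 comparisons, with 124 to 132 loci per blue bar and 25 to 76 per grey bar.

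Conversions were lowest in eIF3d in every one of the 113 genes. The median number of T-to-C conversions per read at member clusters was 0.167 in eIF3d (quartiles 0.106 and 0.274). For eIF3a it was 1.005 (0.917 and 1.096), for eIF3b 1.065 (0.943 and 1.15) and for eIF3g 1.056 (0.915 and 1.18). As summed conversions over summed reads, the values were lower in eIF3g, at 0.596, and in eIF3d, at 0.0966, and they were 0.921 in eIF3a and 1.05 in eIF3b. The other 5′ UTR clusters had medians of 1.00, 1.06, 0.238 and 1.00. Within eIF3d the member clusters with more reads had fewer conversions per read, with a Spearman's rho of -0.66 over 139 clusters. In eIF3a, eIF3b and eIF3g rho was 0.03, 0.22 and 0.20. The number of eIF3d conversions rose little with reads: 6 at 9 reads in RPL35A, 11 at 589 in UBE2D2 and 18 at 2256 in BTG1. In eIF3a these genes had 19 at 18, 622 at 554 and 74 at 684. The eIF3d ratio thus falls as its own denominator grows, and whether eIF3d conversions were counted in the same way was not tested. These are descriptions, and the sources used here do not give what 1 conversion counts.

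BTG1 and TPT1 had few conversions per read in every subunit, though TPT1 was not among the lowest 6 members in eIF3d. As counts their conversions were not few in eIF3g, at 294 in BTG1 and 129 in TPT1. BTG1 had 0.108, 0.220, 0.00798 and 0.0946 conversions per read, and TPT1 had 0.128, 0.474, 0.0804 and 0.350. JUN had 0.565, 0.80, 0.0699 and 0.0818. In eIF3g only JUN, BTG1 and TPT1 were below 0.5, and in eIF3b only BTG1 and TPT1. In eIF3a 5 genes were below 0.5: BTG1, TPT1, RAD54L, EEF2 and RHOA. RAD54L, a DNA repair helicase, is named after its values were seen, as is WTAP, a subunit of the RNA methylation complex, which had 1.44, 1.73, 0.375 and 1.93, the highest of the members in eIF3b and eIF3g.

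The limit of the choice lay close to some genes. In 12 members the subunit with fewest reads had under 10, where the lowest count of any cluster in the table was 8. CDC25C had its lowest value, 8 reads, in eIF3a, and EEF2 had 8 in eIF3g. LRRC59, an endoplasmic reticulum protein, had 79, 8, 56 and 33. Just outside the choice, 73 genes had 5′ UTR clusters for 3 subunits, and 42 of them lacked eIF3b, 13 eIF3a, 9 eIF3d and 9 eIF3g. The strongest were BRD2, a bromodomain protein, with 59 reads in eIF3a, 48 in eIF3d and 47 in eIF3g, and EIF3B, the mRNA of eIF3b itself, with 19, 53 and 82. ENO1, enolase, had 48, 51 and 38 and MED13, of the Mediator kinase module, 80, 33 and 23. All 4 lacked a 5′ UTR cluster of eIF3b. EIF3B did have an eIF3b cluster in a coding exon, while BRD2, ENO1 and MED13 had no eIF3b cluster elsewhere.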

How the data were processed

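The values come from 1 table of PAR-CLIP clusters. The authors deposited raw read counts, not normalized, per the file headers, and the number of T-to-C conversions is given the same way. Each subunit has 1 value per cluster; how its 3 replicates were combined, the cluster caller and its thresholds are not given in the sources. Positions are hg19, printed as the authors' table gives them, with no statement on counting from 0 or 1. The submitters' processing notes name cutadapt, Bowtie and bedtools without versions.

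Genes were matched by Ensembl ID, and clusters of at least 1 nt overlap on 1 strand were joined into loci. Borders were compared along the transcript at loci with 1 cluster per subunit. Read ratios were scaled to the median ratio of a pair's loci. Shares carry Wilson intervals at 95%. Python 3.11.15, pandas 2.3.3, numpy 2.4.6 and scipy 1.17.1 were used, and the scripts were tested on simulated clusters. Start windows come from RefSeq (GRCh38.p14); the sequence under the clusters, which needs hg19, was not used here.

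Members and gene lists were chosen with earlier results of these data known. The rule for named genes took the 12 with most reads; 4 each by number of loci, locus width, reads at identical borders, highest and lowest eIF3g over eIF3a ratio, lowest subunit and strongest genes of 3 subunits; up to 3 per list; and genes without a common locus. One gene that the rule takes is not reported here. Others, including names given only in lists of genes, were chosen after their values were seen. A count test per library was set out and not run, because the table has no value per library. Alternatives were stricter read limits, other joins, border tolerances, folds and scalings.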

Additional observations from a re-analysis of the deposited data

How the results depend on the processing

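Of 103 values computed under other settings, 77 stayed within the limits set (1.5 times the reported count or median, or the Wilson interval of a share). With clusters of at least 15 reads the members fell to 66 genes, 311 clusters and 90 loci. All 66 were among the 113, as must be, since a stricter limit can only remove clusters. Under this limit identical borders rose to 57.1% of pairs and identical 5′ borders to 75%. With borders within 1 nt the shares of the 5′ border, the 3′ border and both were 74.8%, 72.8% and 59.3%, and within 3 nt 80.2%, 79.5% and 68.4%. With an overlap of at least 50% of the shorter cluster, 6 genes in place of 3 had no locus of all 4 subunits. At 1.5-fold in place of 2-fold, 68 member loci differed between eIF3a and eIF3b (54.0%, beside 57.2% of all loci), 60 between eIF3a and eIF3d (45.5%, beside 47.8%) and 88 between eIF3a and eIF3g (67.2%, beside 65.8%). Between eIF3b and eIF3d it was 73 (58.9%, beside 59.1%) and between eIF3d and eIF3g 79 (59.8%, beside 59.7%). At 4-fold the counts were 7 for eIF3a and eIF3b (5.56%, beside 6.55%), 4 for eIF3a and eIF3d (3.03%, beside 5.02%) and 15 for eIF3a and eIF3g (11.5%, beside 13.7%). They were 12 for eIF3b and eIF3d (9.68%, beside 14.3%), 17 for eIF3b and eIF3g (13.5%, beside 19.7%) and 9 for eIF3d and eIF3g (6.82%, beside 9.22%). As summed conversions over summed reads, eIF3d had 0.0966 and eIF3g 0.596 conversions per read. Counting start codon clusters too added 7 genes. A C with 4 pyrimidines within 5 nt of the RefSeq start, added after seeing the data, was found in 29.3% of members, against 14.1% at the start itself. No paired analysis was possible because the table's columns carry no replicate number, and for the same reason no replicate could be left out. Depth per library is unknown, so a subunit absent from a gene may lie below the lowest count listed.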

Other observations

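Beyond their 5′ UTRs, 2 of the 113 genes had clusters elsewhere, 11 clusters with 260 reads in all. The same count was not made for the other 5′ UTR genes, so no comparison with them can be given. Over the whole series 1001 of 1477 clusters were annotated as 5′ UTR. ZNF503, a zinc finger repressor (chromosome 10, minus strand), had clusters of every subunit at its start codon and in its coding exon. In the order eIF3a, eIF3b, eIF3d, eIF3g, the start codon clusters held 49, 20, 31 and 15 reads, against 51, 145, 99 and 33 in its 5′ UTR. SCD had coding exon clusters of 11 reads in eIF3a, 11 in eIF3b and 21 in eIF3g, each with as many conversions as reads and with the same borders (chromosome 10, 102107829 to 102107856, plus strand). One pair of members were neighbours within 50000 nt: the loci of CBX3 and HNRNPA2B1 lay 1318 nt apart on opposite strands of chromosome 7. ZNF503 and HNRNPA2B1 fall outside the naming rule and were chosen with their values known.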
